A study of Mus musculus with 7 samples.

Results

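Villin, the plastins, the ezrin, radixin and moesin linkers and the tip and bundle proteins Espn and Eps8 were followed in livers with and without miR-122. These 10 genes (Vil1, Vill, Pls1, Pls3, Lcp1, Ezr, Rdx, Msn, Espn and Eps8) were represented by 17 of the 45101 probe sets on the array, namely every probe set whose platform gene symbol is exactly 1 of the 10. The gene set was chosen by the knockout minus wild-type differences of these same 7 arrays, so the differences of the members below are a description of the data and not a test. The arrays were made from livers of 4 mir-122 knockout mice and 3 WT mice, 1 array for each animal, all 2 months old and all of the mixed B6/129 background. miR-122 is the microRNA that hepatocytes make in the largest amount. The labels give neither the sex of the animals nor whether the deletion spans every cell or hepatocytes alone. Values of single livers are listed in the order KO-03, KO-90, KO-91, KO-94 for knockout and WT-27, WT-103, WT-104 for wild type.

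A microvillus is a finger of plasma membrane around a core of parallel actin filaments. Villin, plastins (also called fimbrins) and espin bundle the filaments, Eps8 caps their growing ends at the tip, and ezrin, radixin and moesin (the ERM proteins) tie the core to the membrane. In liver, microvilli line the bile canaliculus, the apical groove between hepatocytes, and the apical face of bile duct cells (cholangiocytes). Radixin is the main ERM protein of mouse hepatocytes, ezrin is the one of cholangiocytes, and moesin is typical of endothelial cells and leukocytes. Lcp1, or L-plastin, is the plastin of leukocytes, Pls1, or I-plastin, that of intestinal brush borders, and Pls3, or T-plastin, that of many solid tissues.

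The values were log2 expression levels after robust multi-array analysis, and array medians lay between 4.65 and 4.72. Without detection calls, the highest of 27 bacterial control probe sets on each array, 4.71 to 5.23 over the arrays, served as a floor. Hepatocyte markers were bright in every liver, led by Alb and Apoa1: the mean level of 8 of them was 13.48 to 13.62 in knockout and 13.43 to 13.50 in wild-type livers, 0 of the 8 were called, and 0 lay under the floor. Of all 18193 genes 1.87% were called higher and 0.511% lower. In whole livers, a change in the number of cells of a type and a change in RNA per cell cannot be told apart. Over all 45037 probe sets that were not controls the median difference, knockout minus wild type, was -0.0047. The genotype could not be checked on miR-122 itself, which these probe sets do not measure by name.

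Of the 17 member probe sets, 3 were called higher in knockout (1 each of Vil1, Pls1 and Ezr), 0 were called lower and 14 were not called. Called means a limma adjusted p under 0.05 over all 45037 probe sets. Over all probe sets, 1.29% were called higher and 0.32% lower, and nothing is read from the members' share because the members were picked on this contrast. In 9 of the 17 all knockout arrays lay above all wild-type arrays and in 1 (Pls3) all lay below, against 7.25% and 5.53% of all probe sets. For the same reason nothing is read from these shares. The median difference of the 17 was 0.27, with 14 above and 3 below 0. Of the 17, 10 lay above the floor on all 7 arrays and 3, the Espn probe set and a pair of Eps8 probe sets, were under it on all 7. The Espn probe set and 1 of this Eps8 pair are among the 9 with all knockout arrays higher.

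**Figure D1:**
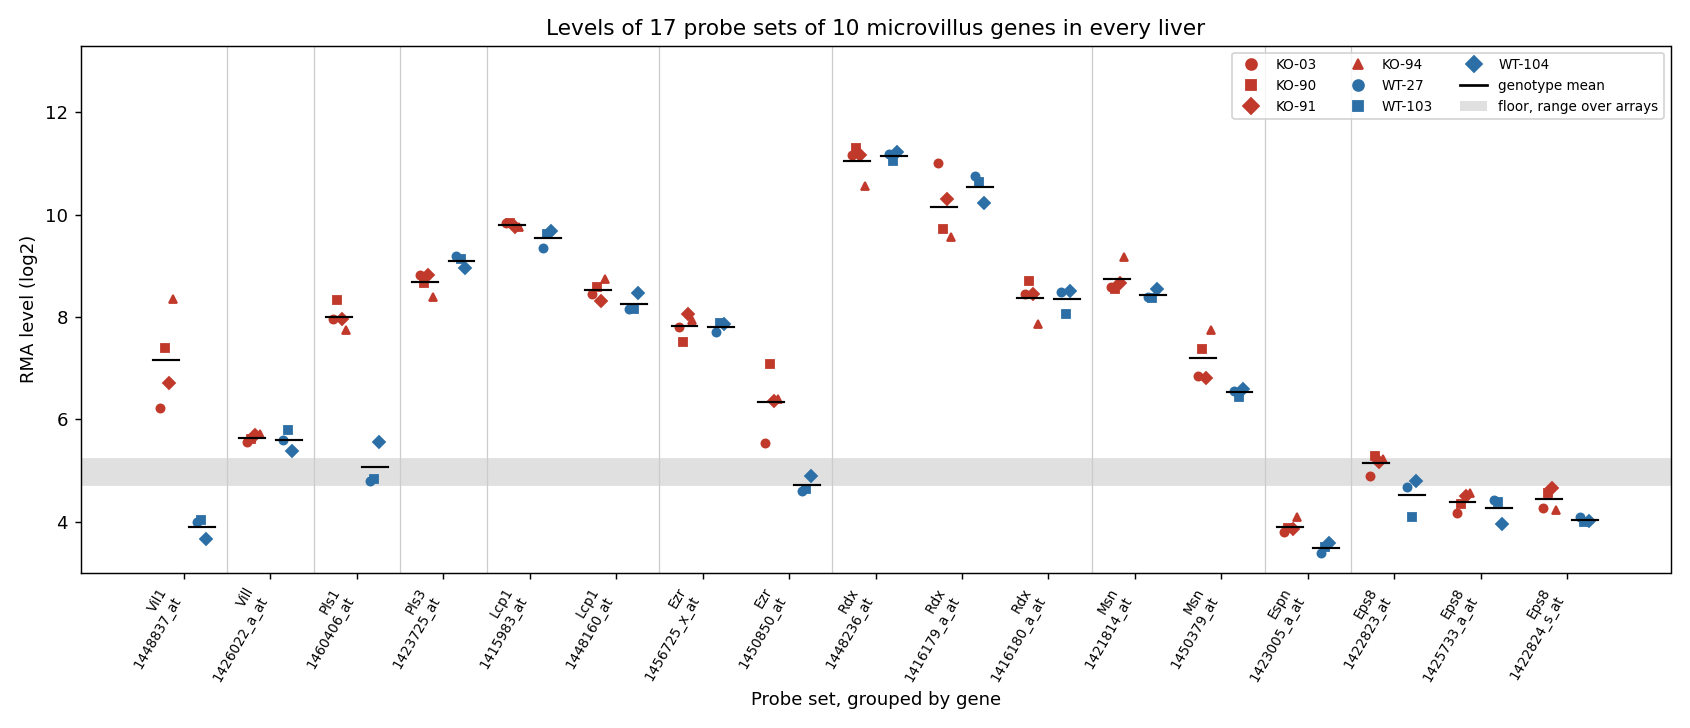
Each point is the RMA level (log2) of 1 probe set in 1 liver, knockout in red on the left and wild type in blue on the right of each position, with black lines for genotype means and a grey band for the range of the floor over the arrays (4.71 to 5.23). The knockout and wild-type points are far apart for Vil1, for Pls1 and for 1 of the 2 Ezr probe sets, and they overlap or nearly touch for most others.

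The promoters of the 3 genes with a called probe set are shown as the 250 bases before the annotated start, from RefSeq sequence of build GRCm38.p6, since each of the 3 had a probe set that lay higher in all 4 knockout livers, for Ezr 1 of its 2. Capitals mark matches, on either strand, to motifs chosen after the promoters were read: the serum response factor site (CArG box, by its name), the AP-1 site (TGANTCA), the TEAD site (GGAATG), the TATA box (TATAAA) and the GC box (GGGCGG). No matches overlapped in these 3 promoters. The stretches are chr1:74409134-74409383 (plus strand) for Vil1, chr9:95845280-95845529 (minus strand) for Pls1 and chr17:6782781-6783030 (minus strand) for Ezr.
Vil1: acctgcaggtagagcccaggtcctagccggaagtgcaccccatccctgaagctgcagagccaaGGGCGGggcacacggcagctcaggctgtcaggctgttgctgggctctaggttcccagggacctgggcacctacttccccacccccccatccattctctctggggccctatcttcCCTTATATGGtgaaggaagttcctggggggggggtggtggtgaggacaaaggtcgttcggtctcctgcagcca
Pls1: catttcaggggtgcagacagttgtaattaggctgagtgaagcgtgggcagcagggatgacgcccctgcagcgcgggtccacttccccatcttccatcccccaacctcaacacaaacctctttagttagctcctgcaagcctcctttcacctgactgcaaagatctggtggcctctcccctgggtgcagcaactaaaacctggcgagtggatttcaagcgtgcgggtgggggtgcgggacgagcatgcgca
Ezr: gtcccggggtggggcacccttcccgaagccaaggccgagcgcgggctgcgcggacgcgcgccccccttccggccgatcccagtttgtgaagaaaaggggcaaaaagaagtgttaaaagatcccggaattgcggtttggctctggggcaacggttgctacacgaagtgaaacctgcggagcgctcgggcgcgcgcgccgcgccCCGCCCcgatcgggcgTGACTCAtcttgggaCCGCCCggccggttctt

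The Vil1 stretch holds 1 CArG box, CCTTATATGG, from 73 to 64 bases before the start, and 1 GC box. The Ezr stretch holds 1 AP-1 site, TGACTCA, from 32 to 26 bases before the start, between 2 GC boxes. The Pls1 stretch holds 0 matches to the 5 motifs. A CArG box occurs in 1.47% of 32851 promoter stretches of this length in the table, an AP-1 site in 6.75%, a TEAD site in 12.6%, a TATA box in 12.4% and a GC box in 32.7%. Promoters were matched for 9 of the 10 genes, with 15 annotated starts, of which 1 held a CArG box, 1 an AP-1 site, 4 a TEAD site, 0 a TATA box and 7 a GC box. The 4 with a TEAD site were 3 overlapping or alternative starts of Pls3 and 1 of Lcp1. A match of letters is not a bound site, and the array does not measure binding.

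Villin is the actin-bundling and severing protein of brush borders. Its probe set, 1448837_at, read 6.22, 7.39, 6.70 and 8.35 in the 4 knockout livers, against 3.99, 4.03 and 3.67 in the 3 wild-type livers. All 4 knockout livers stood above the floor and all 3 wild-type livers below it, so the wild-type values give an upper limit only. The lowest knockout liver was 2.19 above the highest wild-type liver. The measured means were 7.16 ± 0.92 (SD, n = 4) in knockout and 3.89 ± 0.20 (SD, n = 3) in wild type, and with wild type raised to the floor the difference was at least 2.26 on the log2 scale, or at least 4.78-fold. Vil1 was no longer called when WT-103 was left out, with a measured difference of 3.34, against 3.27 over all 7 arrays.

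Villin-like, Vill, encodes a relative of villin with the same domain plan. It read 5.55, 5.61, 5.69 and 5.71 in the knockout livers, against 5.61, 5.79 and 5.38 in the 3 wild-type livers. The genotypes overlapped throughout and the difference was 0.05 ± 0.12 (SE), above the floor in every liver. Villin was thus far apart between genotypes and Vill was not separated in the same livers.

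Pls1, which bundles actin in intestinal microvilli and in the stereocilia of hair cells, read 7.95, 8.34, 7.95 and 7.74 in the 4 knockout livers, against 4.79, 4.83 and 5.56 in the 3 wild-type livers. The knockout livers lay close together and the gap to the highest wild-type liver, WT-104, was 2.18. The means were 7.996 ± 0.249 (SD, n = 4) in knockout and 5.06 ± 0.44 (SD, n = 3) in wild type. With WT-103, the 1 wild-type liver under the floor, raised to it, the difference was at least 2.91 on the log2 scale, or at least 7.52-fold. Pls1 was the only member called under every alternative that gave a test, with measured differences of 2.80 to 3.19.

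The other plastins did not separate in the same way. Pls3 read 8.82, 8.67, 8.82 and 8.40 in the knockout livers, against 9.19, 9.14 and 8.96 in the 3 wild-type livers. It was the 1 member with all knockout livers below all wild-type livers, with a gap of 0.14 and a difference of -0.42 ± 0.13 (SE), and it was not called. The brighter Lcp1 probe set read 9.84, 9.84, 9.75 and 9.77 in knockout, against 9.35, 9.63 and 9.68 in wild type, a difference of 0.24 ± 0.11 (SE) with a gap of 0.07 between the genotypes. The second Lcp1 probe set overlapped between genotypes and differed by 0.27 ± 0.14 (SE). Neither was called. So among the 3 plastin genes Pls1 lay higher by more than its spread in both genotypes, Lcp1 lay slightly higher and Pls3 slightly lower.

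Leukocytes, the main source of L-plastin, are part of a whole liver. Of 18 leukocyte markers 3 were called higher (S100a8 by at least 3.25, S100a9 by 3.16 and Cd14 by 2.17 on the log2 scale, limma adjusted p = 0.0269, 0.0293 and 0.0471), 0 were called lower and 15 were not called, against 1.87% of all 18193 genes called higher and 0.511% lower. The summed level of that list was 11.82 to 12.74 in knockout and 11.09 to 11.47 in wild type (log2), the markers with the highest mean level were Clec4f and Cd52, and 4 of the 18, Itgam and Cd3g among them, were under the floor in every liver. Coro1a, an actin-binding protein of leukocytes, was called at a second probe set, at 1.36 (limma adjusted p = 0.0333), a call lost without KO-90, KO-91 or any 1 wild-type liver (up to 0.153). Ptprc, the marker of all leukocytes, differed by 0.56 ± 0.16 (SE; limma adjusted p = 0.152). The part of leukocytes in the Lcp1 values was not tested. S100a8, S100a9 and Cd14 each lost the call without any 1 wild-type liver, and also without KO-90 (S100a8), KO-91 (S100a9) or either of these (Cd14), at limma adjusted p up to 0.102, 0.131 and 0.208.

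Ezrin gave different readings at its 2 probe sets. The probe set 1450850_at read 5.54, 7.08, 6.36 and 6.40 in the 4 knockout livers, against 4.59, 4.63 and 4.90 in the 3 wild-type livers. All wild-type livers lay under the floor and all knockout livers above it, with a gap of 0.64 between the nearest animals. The difference was at least 1.44 on the log2 scale, or at least 2.72-fold, with measured means of 6.35 ± 0.63 (SD, n = 4) in knockout and 4.71 ± 0.17 (SD, n = 3) in wild type. The brighter probe set, 1456725_x_at, read 7.81, 7.52, 8.06 and 7.94 in knockout, against 7.71, 7.88 and 7.85 in wild type, which overlap fully (0.02 ± 0.14, SE). By the array maker's naming, the suffix _x_at marks probes that can also bind other transcripts. The call at 1450850_at was lost when any 1 array other than KO-03 was left out, with measured differences of 1.39 to 1.73.

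Radixin did not separate by genotype. The probe set 1448236_at read 11.17, 11.31, 11.17 and 10.56 in the 4 knockout livers, against 11.18, 11.05 and 11.23 in wild type, a difference of -0.10 ± 0.18 (SE). The others differed by -0.40 ± 0.32 (SE) at 1416179_a_at and by 0.01 ± 0.20 (SE) at 1416180_a_at, and the genotypes overlapped at all 3. KO-94 was the lowest knockout liver at all 3, and below all wild-type livers at all 3. At 1416179_a_at the knockout livers ranged over 1.45, with KO-03 at 11.01 above every wild-type liver.

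Moesin read slightly higher in knockout at both probe sets. The probe set 1450379_at read 6.84, 7.38, 6.81 and 7.74 in the 4 knockout livers, against 6.55, 6.44 and 6.59 in wild type, and the brighter 1421814_at read 8.58, 8.55, 8.67 and 9.17 in knockout, against 8.39, 8.38 and 8.54. The genotypes did not overlap at either, but the gaps were 0.22 and 0.01, and KO-94 was the highest liver at both. The differences were 0.67 ± 0.22 (SE) and 0.30 ± 0.16 (SE), and neither was called. Of 10 endothelial markers 0 were called, against 1.87% of all genes called higher and 0.511% lower. Their summed level was 11.24 to 11.53 in knockout and 11.28 to 11.43 in wild type (log2), the brightest being Clec4g and Eng, and 0 of the 10 were under the floor on all arrays. The mean level of the leukocyte list was 6.97 to 7.68 in knockout and 6.06 to 6.56 in wild type. The part of endothelial cells and leukocytes in the Msn values was not tested. Of the 3 ERM genes, then, 1 Ezr probe set was called, both Msn probe sets leaned the same way without a call, and Rdx overlapped.

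The tip and bundle proteins were dim. Espn, the espin of stereocilia and brush borders, read 3.79 to 4.09 in knockout and 3.38 to 3.58 in wild type, under the floor on every array, so no fold is given. Eps8 read 4.89, 5.28, 5.16 and 5.23 at 1422823_at in the 4 knockout livers, against 4.68, 4.09 and 4.79 in the 3 wild-type livers. At this probe set every knockout liver was just above its floor and every wild-type liver under it. The difference of at least 0.24 on the log2 scale was not called. The other 2 Eps8 probe sets were under the floor on all 7 arrays.

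**Figure D2:**
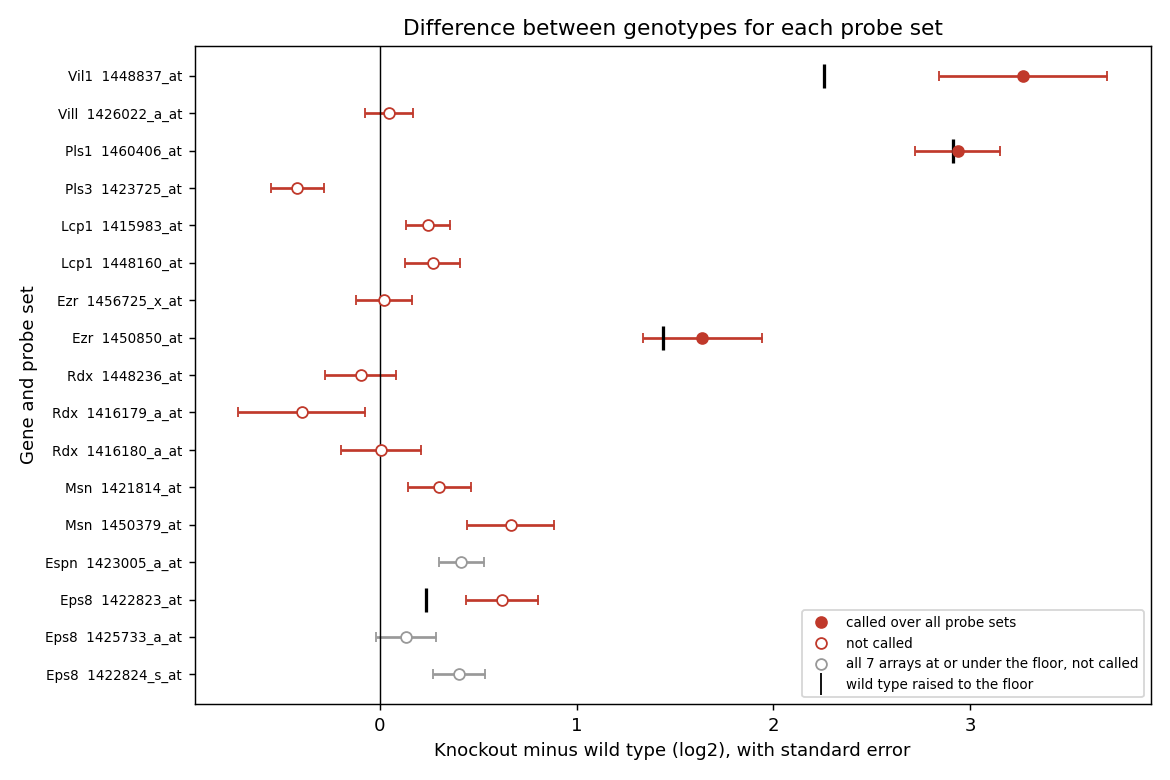
Points give the knockout minus wild-type difference of each member probe set (log2) with the standard error of the fit, filled where called over all probe sets, grey where all 7 arrays were at or under the floor; black ticks give the difference with wild type raised to the floor. Vil1 and Pls1 stand at 3.27 and 2.94 and 1 Ezr probe set at 1.64, while the other 14 lie between -0.42 and 0.67.

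The members did not move as 1 block between the knockout animals. KO-94 was the highest knockout liver at 7 of the 17 probe sets, among them Vil1 and both Msn probe sets, and the lowest at 6, among them Pls1, Pls3 and all 3 of Rdx. KO-03 was the lowest at 6, among them Vil1 and the called Ezr probe set, and the highest at 1. KO-90 was the highest at 6, among them Pls1 and the called Ezr probe set. The knockout SD exceeded the wild-type SD at 11 of 17 probe sets, some of them under the floor in wild type, and the share over all probe sets was not computed. For Vil1 the knockout livers ranged over 2.13 and the wild-type livers over 0.36, but all 3 wild-type values lay under the floor. Their range therefore does not measure how far villin RNA varied in wild type. For Pls1, with 1 wild-type value under the floor, the knockout range of 0.60 was below the wild-type range of 0.78. These ranges are over 4 knockout and 3 wild-type livers.

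**Figure D3:**
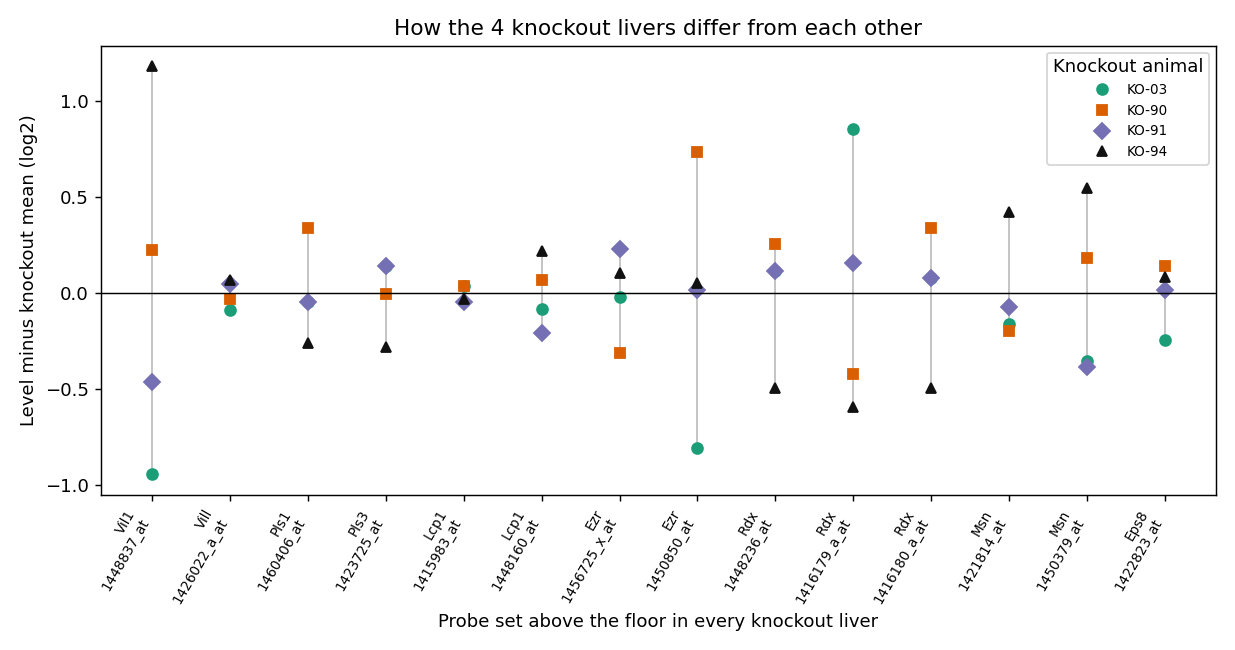
For each member probe set above the floor in all 4 knockout livers, points give each knockout liver's level minus the knockout mean (log2). KO-94 (black triangles) is at the top for Vil1 and Msn and at the bottom for Pls1, Pls3 and Rdx, and KO-03 (green circles) is at the bottom for Vil1 and for 1 Ezr probe set.

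The genes whose profile over the 7 arrays was most like that of Vil1 were Igf2, Tagln2, Ifi27l2b, Nf2 and Fads3, with Pearson r of 0.998, 0.997, 0.994, 0.993 and 0.993 among 8920 candidate genes. Igf2 is a fetal growth factor, Tagln2 binds actin, Nf2 encodes merlin, an ERM relative, and Fads3 belongs to the fatty acid desaturase family. With 7 arrays in 2 separate genotypes, such an r reflects both the gap between genotypes and the order of the livers within them. The order of the knockout livers in Vil1 was KO-94, KO-90, KO-91, KO-03, high to low. All 5 genes shared it, but they were picked by likeness to Vil1, so this is no test. It was shared by 15.1% of the 8920 candidate genes and by 1 of the 16 other member probe sets, that of Espn, which was under the floor on every array. Igf2 read 10.27, 12.13, 11.23 and 13.36 in the 4 knockout livers, against 6.61, 6.53 and 6.20 in wild type.

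Other genes of the microvillus were mostly not called. These are genes of the actin core, its myosin motors and the protocadherin tip links, each taken at its brightest probe set. Of 23 measured genes 1 was called higher, 0 lower and 22 were not called, against 1.87% of 18193 genes called higher and 0.511% called lower. In 6 of the 23 all knockout livers lay above all wild-type livers and in 0 below, against 9.15% and 6.62% of all genes. The list median was 0.14, against 0.01 over all genes. The called gene was Prom1, prominin-1, a protein of membrane protrusions that is also on the cholangiocyte list. It read 5.44, 7.32, 6.22 and 6.80 in the 4 knockout livers, against 3.78, 3.91 and 4.19 in wild type, where every wild-type value was under the floor, a difference of at least 1.54 (limma adjusted p = 0.0178). Prom1 lost the call without any 1 wild-type liver or KO-91, at limma adjusted p up to 0.0989. Without KO-03 it was joined by Actg1, gamma-actin, at 1.41 (limma adjusted p = 0.0386) and Tpm1, a tropomyosin, at 1.11 (0.0404). In all 7 livers the myosin Myo1a, the protocadherin Cdhr2 and the scaffold Ush1c were under the floor.

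Of the 6 gelsolin superfamily genes, the relatives of villin, 0 were called at the brightest probe set (list median 0.09). Of all genes 1.87% were called higher and 0.511% lower. The 2 with the smallest p were Gsn, gelsolin itself, at 1.84 ± 0.40 (SE; limma adjusted p = 0.0669), and the capping protein Capg, with 2 wild-type values under the floor, at least 0.75 (limma adjusted p = 0.310). The brightest Gsn probe set read 8.05, 9.31, 9.78 and 9.92 in the 4 knockout livers, against 7.60, 7.14 and 7.54 in the 3 wild-type livers. The genotypes did not overlap, and KO-03 was nearest to wild type. Of its 5 other probe sets, 3 were called, at 2.26, 2.04 and 2.06 (limma adjusted p = 0.0385, 0.0144 and 0.0176), and the remaining 2 lay under the floor in every liver. Of the 3 calls, that at 1415812_at was lost without any 1 array other than KO-03 (up to 0.177), that at 1436991_x_at without WT-103, WT-104 or KO-90 (up to 0.0853), and that at 1437171_x_at without any of these or KO-91 (up to 0.0981). Without KO-03 the brightest was called too, at 2.24 (limma adjusted p = 0.00161).

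Among 17 relatives, kinases and membrane partners of the ERM proteins, 2 were called higher, 0 lower and 15 were not called (list median 0.38), against 1.87% of all genes called higher and 0.511% lower. In 7 of the 17 the knockout livers all lay above the wild-type livers, against 9.15% of all genes. Nf2 read 7.40, 7.77, 7.56 and 7.88 in the 4 knockout livers, against 6.90, 7.01 and 6.93 in wild type (0.70 ± 0.13, SE; limma adjusted p = 0.0418). Of its 3 other probe sets 0 were called, with differences of 0.74 and 0.07 at the 2 above the floor in every liver. Clic5, a chloride intracellular channel family protein that binds ezrin and radixin, read 5.07, 5.74, 5.73 and 5.44 in the knockout livers, against 4.61, 4.52 and 4.56 in wild type, where every wild-type value was under the floor, a difference of at least 0.59 (limma adjusted p = 0.0360). Another Clic5 probe set was called as well, by at least 0.96 (limma adjusted p = 0.0210). Clic4, of the same family, was not called at its brightest probe set (0.64 ± 0.14, SE; limma adjusted p = 0.0652), but 1 of its 2 others was, at 0.98 (limma adjusted p = 0.0125). The Clic4 call was lost without WT-103 or WT-104 (up to 0.0742), and that at the second Clic5 probe set without any 1 wild-type liver or KO-91 (up to 0.101). At the brightest probe set, both Nf2 and Clic5 lost the call when any 1 array other than KO-03 was left out, at limma adjusted p up to 0.150 and 0.161. The scaffold Slc9a3r1, which ERM proteins bind through its tail, differed by 0.06 ± 0.14 (SE) and Slk, a kinase that activates ERM proteins, by -0.12 ± 0.18 (SE).

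Of 9 transporters of the bile canaliculus 0 were called (list median -0.01), against 1.87% of all genes called higher and 0.511% lower. With so few genes, 0 calls say little about the list. In 1 of the 9 all knockout livers lay above all wild-type livers and in 2 below, against 9.15% and 6.62% of all genes. The smallest p were those of Abcb1a, which was under the floor in every liver, so that no difference is given, and of Abcg2, a multidrug exporter, at -0.68 ± 0.17 (SE; limma adjusted p = 0.111). Abcc2, whose place in the canalicular membrane depends on radixin in mice, differed by 0.06 ± 0.18 (SE). Without KO-03 Abcg2 was called lower, at -0.79 (limma adjusted p = 0.0378).

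Of 11 cholangiocyte markers, 5 were called higher, 0 lower and 6 were not called, against 1.87% of all genes called higher and 0.511% lower. By adjusted p these were led by Cd24a at least 2.73 higher, Tspan8 at least 1.70, Epcam at least 2.06 and Prom1 at least 1.54 (limma adjusted p = 0.00439, 0.00919, 0.0146 and 0.0178). Tspan8 lost the call without WT-103 (limma adjusted p = 0.0619), and Epcam without WT-27, WT-103, KO-90 or KO-91 (up to 0.0925). Epcam was not called at its other probe set, which was above the floor in every liver and overlapped between genotypes. It differed there by -0.17 ± 0.16 (SE), with limma adjusted p = 0.708. The other Tspan8 probe sets were not called either, while the other Cd24a probe sets were called higher. The fifth called marker, the duct keratin Krt19, was at least 1.10 higher (limma adjusted p = 0.0366). It lost the call without any 1 array other than KO-03 (up to 0.171). At its brightest probe set Cd24a kept its call without any 1 array. The mean level of the list was 5.36, 6.27, 6.31 and 6.05 in the 4 knockout livers, against 4.73, 4.87 and 4.90 in wild type, and its summed level was 9.24 to 10.24 in knockout and 8.82 to 9.53 in wild type (log2). The brightest were Slc4a2 and Onecut1, at -0.21 and -0.93, neither of them called. The defining markers Krt7 and Cftr lay under the floor on all 7 arrays, and Sox9 differed by 0.44 ± 0.16 (SE; limma adjusted p = 0.284). KO-94, the highest liver for Vil1, lay below KO-90 and KO-91 for the mean of this list. Among the knockout livers it was the highest for the mean of the leukocyte, endothelial and stellate lists, but not of the hepatocyte and mesothelial lists. The stellate means, 8.25, 8.53, 8.43 and 8.82 in the 4 knockout livers, and the endothelial means ran in the order of Vil1. This order was not particular to cell type lists. The means of the microvillus list, of the ERM partner list and of the members, Vil1 among them, ran in it too. The part of bile duct cells in the Vil1, Pls1 and Ezr 1450850_at values was not tested.

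Of 12 stellate cell and fibroblast markers, 6 were called higher, 0 lower and 6 were not called, against the same shares of all genes. The called genes were led by Pdgfra at 1.41, Lum at 1.69, Col1a1 at least 2.09 and Pdgfrb at 1.03 (limma adjusted p = 0.00338, 0.00622, 0.00901 and 0.0135). Those not called were Hand2 at 1.09 (limma adjusted p = 0.0568), Des at 0.36, Reln at 0.34, Acta2 at 0.29, Colec11 at 0.11 and Lrat at -0.13. Col1a1 lost the call without WT-103 (limma adjusted p = 0.0583), and Pdgfrb without WT-27, WT-103 or KO-91 (up to 0.0836), while Pdgfra and Lum kept theirs without any 1 array. The summed level of the 12 markers was 12.83 to 13.40 in knockout and 12.07 to 12.22 in wild type (log2). Dcn and Colec11 were the brightest, and 0 of the 12 were under the floor in every liver. Of 7 mesothelial markers 0 were called, against the same shares of all genes. Krt18 and Krt8, keratins that hepatocytes make too, were the brightest of these, and the defining markers Msln and Wt1 lay under the floor in all livers. The part of these cells in the member values was not tested.

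**Figure D4:**
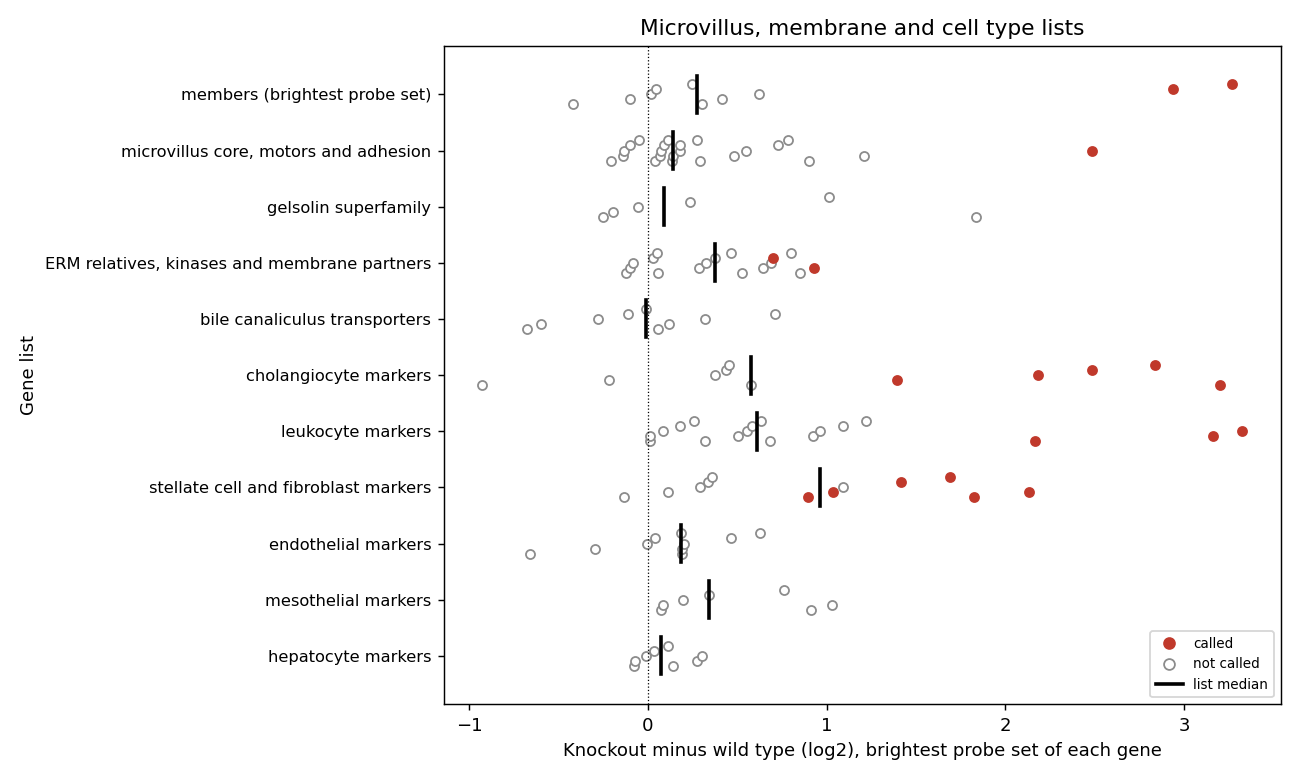
Each point is the knockout minus wild-type difference of 1 gene (log2, brightest probe set), filled red where called, with a black bar for the list median. The members show 2 called genes far to the right (Vil1 and Pls1) and 8 between -0.42 and 0.62, the cholangiocyte, leukocyte and stellate lists hold 5, 3 and 6 called genes, and the bile canaliculus and hepatocyte lists hold 0.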

How the data were processed

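Liver RNA was hybridised to Affymetrix arrays after biotin labelling, per the labels' protocols. The deposited log2 values are the authors' own, summarised by RMA (Partek, no version given), per the submitters' processing notes and the design text. RMA corrects background, quantile normalizes and summarises probes. Of 45101 probe sets, 64 controls were left out. Platform annotation named 1 gene for 34945 of the others and several for 932, and 9160 were unlisted. Knockout and wild type were compared over 45037 probe sets with limma 3.58.1 in R 4.3.3 (lmFit, eBayes, two-sided, no covariates; 5 residual and 3.80 prior degrees of freedom), with Benjamini-Hochberg adjustment and a threshold of 0.05, and 5997 had an unadjusted p under 0.05. A gene in a list was read at its brightest probe set over the 7 arrays. For lower bounds, values under the floor in the dimmer genotype were set to it. The members, the 10 other lists, the floor and the rules were chosen with earlier results of these data known.

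Genes were named by rule: all members, up to 6 called genes of each list or else the 2 with the smallest p, for cell type lists the 2 brightest and up to 4 called, and the 5 genes most like Vil1. Slc9a3r1, Slk, Clic4, Coro1a, Abcc2, Actg1, Tpm1, Myo1a, Cdhr2, Ush1c, Ptprc, Itgam, Cd3g, Krt19, Krt7, Cftr, Sox9, Hand2, Des, Reln, Acta2, Lrat, Msln and Wt1 were named after their values were seen. The fit was tested on simulated data. Figures used Python 3.11.15 and matplotlib 3.10.9. Precision is limited by 7 arrays, and array values carry no counts.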

Additional observations from a re-analysis of the deposited data

How the results depend on the processing

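No paired analysis was possible because the animal numbers do not recur between genotypes. Of 248 values of single member probe sets or genes under the 16 alternatives that gave a test, 228 kept their direction and their side of the threshold. Calls were lost for Vil1 without WT-103 (3.34) and for Ezr 1450850_at without any array but KO-03 (1.39 to 1.73). The mean of both Ezr probe sets was called (0.83). Members close to 0 changed sign. With renewed quantile normalization Ezr 1456725_x_at was at -0.030 and Rdx 1416180_a_at at -0.021. Leaving out 1 array in turn gave -0.056 to 0.124 for Ezr 1456725_x_at, -0.139 to 0.172 for Rdx 1416180_a_at, -0.184 to 0.067 for Rdx 1448236_at, -0.057 to 0.145 for Vill and -0.015 to 0.220 for Eps8 1425733_a_at. The member probe sets called higher numbered 1 to 3 when 1 array was left out. The microvillus count was 0 to 3, the ERM partner count 0 to 2 and the gelsolin count 0 to 1 in those fits, and the canaliculus counts 0 to 1 in each direction, the gene called higher being Abcb1a, under the floor in every liver. A trended prior left 1 ERM partner called. The gelsolin count was 1 with a group mean of at least 6, with the brightest probe set a gene and with the mean of all probe sets a gene. The number of all probe sets called higher, 582, was 172 to 1112 when 1 array was left out (172 without WT-103, 1112 without KO-03), and that called lower, 144, was 38 to 268. Raising wild type to the floor gave 2.26 for Vil1, 1.44 for Ezr 1450850_at and 0.24 for Eps8 1422823_at. The causes were not tested.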

Other observations

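Within a gene, probe sets read alike to different degrees. After each genotype's mean was removed, the 2 Msn probe sets varied together over the 7 livers (Pearson r = 0.72 between their deviations). So did 1448236_at and 1416180_a_at of Rdx (0.94), while 1416179_a_at of Rdx followed them less (0.38 and 0.21). The 2 Ezr probe sets did not vary together (-0.40), and all wild-type values of 1450850_at lay under the floor. These are descriptions over 7 arrays of shared normalization.

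The deviations of Vil1 ran with those of Msn 1450379_at (0.92) and opposite to those of Rdx 1416179_a_at (-0.81) and Pls3 (-0.79). These r were the most extreme among the 16 other member probe sets. With Pls1 the deviations hardly ran together (-0.27), although Vil1 and Pls1 had the widest gaps between genotypes of all the members. All 3 wild-type values of Vil1 lay under the floor, so their deviations do not measure how villin RNA varied there.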
